A study of Mus musculus with 3 samples.

Results

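The secreted and membrane antagonists of bone morphogenetic protein (Bmp) signaling were examined in EpH4-PR cells: Nog, Chrd, Grem1, Fst, Fstl1, Fstl3, Bambi, Twsg1 and Bmper. These 9 genes were picked by name, and every probe with one of these names, or with a RefSeq accession of the gene, was kept. All 9 had a probe, out of 30338 gene names on the array, and together they had 13 of its 41174 probes, on 22 spots. EpH4 is a mouse mammary epithelial line, and EpH4-PR is its derivative stably transfected with the A form of the progesterone receptor (PR-A) and kept under G418, a drug that spares only cells with the resistance gene. Transfected cells were selected as clones, and whether EpH4-PR is 1 clone is not given in the sources used here. The cells were grown in 10% FBS to about 75% confluence, and no hormone or added Bmp is named for the arrays. RNA of these cells was labeled with Cy5 on 3 Agilent arrays and compared on each with Stratagene mouse standard RNA, a commercial reference, labeled with Cy3. The arrays carry replicate numbers, but nothing says that they came from separate cultures, so the errors and p-values below measure the spread between arrays, which may be technical. EpH4-EV cells, the empty-vector control of the study, were not analysed here. The log2 of EpH4-PR over reference signal therefore describes a level and is not an effect of PR.

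Bmps are secreted ligands that join type 1 and type 2 receptors at the cell surface, which then phosphorylate Smad1, Smad5 and Smad9 and switch on target genes such as the Id genes. Antagonists set how much ligand reaches the receptor. Noggin (Nog), chordin (Chrd) and gremlin 1 (Grem1) bind the ligand outside the cell, Bmper and twisted gastrulation (Twsg1) bind both ligand and chordin and can hinder or help signaling, and follistatin (Fst) and Fstl3 bind activins tightly and some Bmps as well. Fstl1 is a more distant secreted relative of follistatin that can bind Bmp4, and Bambi is a membrane protein that resembles a type 1 receptor but lacks its kinase. In the mammary gland Bmp signals act between epithelium and stroma during duct outgrowth, and recombinant Noggin is the usual reagent for blocking them.

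Relative to the reference, Fst was 3.23-fold higher in EpH4-PR cells, while Fstl1 was 20.0-fold lower, Grem1 4.23-fold lower and Twsg1, on 1 of its 3 probes, 2.17-fold lower. Chrd and Fstl3 lay close to the reference. Nog and both probes of Bmper were not called, at log2 ratios of 0.31, 0.03 and 0.49, and Bambi was not well above background in EpH4-PR RNA. Of the 13 probes, 1 was called higher and 3 were called lower by limma, that is with an adjusted p under 0.05 (Benjamini-Hochberg over all 41174 probes) and a mean log2 ratio of 1 or more in either direction. The same rule called 2.26% of all probes higher and 3.83% lower. On the adjusted p alone 4 antagonist probes were higher and 5 were lower, in a background of 25.7% and 24.6% of all probes. The median log2 ratio was -0.02 over the antagonist probes and -0.01 over all probes. The signal of a bulk RNA sample does not separate fewer cells with a transcript from less of it in each cell.

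**Figure D1:**
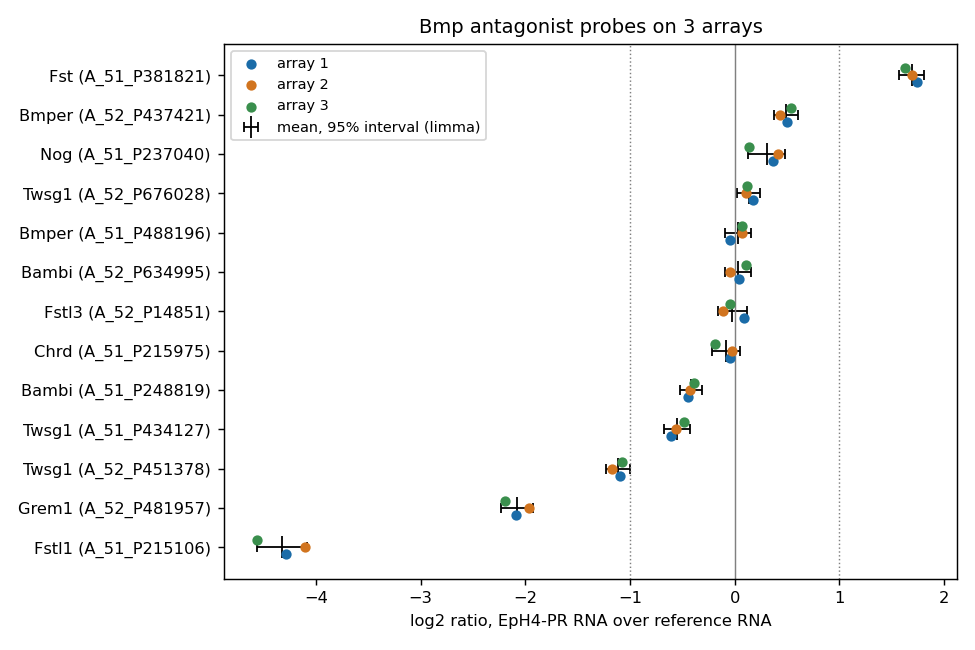
Log2 ratio, EpH4-PR over reference, (x axis) for the 13 antagonist probes (y axis), with 1 point per array, the mean as a black tick and its 95% interval from limma; solid and dotted lines mark 0 and a log2 ratio of 1 either way. Fst is the single probe right of the upper dotted line, at 1.69, and Fstl1, Grem1 and 1 probe of Twsg1 lie beyond the lower one at -4.32, -2.08 and -1.12.

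The median local background was 42 to 43 in Cy5 and 39 to 43 in Cy3, and the median spot was 93.8 to 113.0 and 108 to 142. In the EpH4-PR channel 29600 to 30925 probes were well above background, a flag of the scanner software, and log2 ratios correlated between arrays at r = 0.923 to 0.952 across probes, which are not independent replicates. The median SD between arrays was 0.09. No antagonist spot was an outlier or saturated. Of the antagonist probes 11 were well above background in EpH4-PR RNA on all 3 arrays, 10 in reference RNA and 9 in both, against 62.3% of all probes in both. The median negative control spot was brighter than the local background, at 57.3 to 74.1 in Cy5 and 91.8 to 121 in Cy3. Above the 95th percentile of these control spots lay 11 antagonist probes in EpH4-PR RNA and 7 in reference RNA. By the software's significance flag against background both counts were 12. The shares of all probes by the control percentile and by this flag are not given. Cell type markers were read as well, which describe the kind of cell and are no test of the PR transfection. Of 10 epithelial genes 9 were called higher than the reference and 1 lower (Krt19), all 10 well above background. Of 14 mesenchymal genes 12 were called lower and none higher, although all 14 were well above background in EpH4-PR RNA. The summed level of their 24 probes was 11787 to 11953 in EpH4-PR RNA and 134025 to 136416 in reference RNA. Bright probes weigh most in such a sum, since levels of different probes are not comparable. Of 8 basal genes 1 was called higher and 1 lower, of 7 blood cell genes 3 were lower, and none of 5 endothelial genes was called either way. Fstl1 and Grem1 are best known from mesenchymal cells, and the part that the makeup of the reference RNA plays in any ratio below was not tested.

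The promoters shown are those of the genes with a probe called lower than the reference. Twsg1 has no single direction, since its 3 probes had log2 ratios of -1.12, -0.55 and 0.14. Each sequence is the 250 bases before the gene's start, 5′ to 3′ on the gene's strand, from RefSeq on GRCm38.p6, with capitals marking a match to one of the motifs described after it. They lie at chr16:37776805-37777054 (plus strand) for Fstl1, chr2:113758649-113758898 (minus strand) for Grem1 and chr17:65951188-65951437 (minus strand) for Twsg1.
Fstl1: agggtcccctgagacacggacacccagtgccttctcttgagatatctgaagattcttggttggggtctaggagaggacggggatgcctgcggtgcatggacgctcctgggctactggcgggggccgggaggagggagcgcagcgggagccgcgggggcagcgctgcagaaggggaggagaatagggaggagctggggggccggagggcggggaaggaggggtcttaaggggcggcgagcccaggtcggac
Grem1: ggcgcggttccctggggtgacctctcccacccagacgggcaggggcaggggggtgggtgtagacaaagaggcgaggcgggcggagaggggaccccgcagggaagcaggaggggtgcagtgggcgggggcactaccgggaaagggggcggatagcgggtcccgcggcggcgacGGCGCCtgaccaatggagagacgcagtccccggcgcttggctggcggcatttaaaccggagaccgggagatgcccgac
Twsg1: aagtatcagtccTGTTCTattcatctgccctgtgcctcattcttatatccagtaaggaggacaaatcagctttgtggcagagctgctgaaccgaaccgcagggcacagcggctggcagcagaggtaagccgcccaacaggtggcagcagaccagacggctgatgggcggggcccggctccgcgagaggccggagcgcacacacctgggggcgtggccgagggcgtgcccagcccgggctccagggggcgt

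Entries were at hand for 6 of the 9 genes (Chrd, Grem1, Fstl1, Fstl3, Twsg1 and Bmper), and all 6 windows were rich in G and C, at 64.4% to 78% against a median of 52.4% over 32851 promoters of the same length (interquartile range 45.2% to 61.2%). The hexamer TGTTCT, the core of a progesterone response element, was searched on both strands and stood in the windows of Twsg1, 238 bases before the start, and of Fstl3, 179 bases before it. It is held by 16.1% of all promoters. The GC-rich hexamer GGCGCC, which Smad1 and Smad5 can bind and which reads the same on both strands, stood 78 bases before the start of Grem1 and 203 bases before that of Chrd, and is held by 9.59% of all promoters. The palindrome GTCTAGAC, a Smad box, is in 0.167% of promoters and in none of these, and TATAAA on the gene's own strand is in 7.59% and in none of these. The motifs do not overlap each other in these windows. The shares are over all promoters and were not matched for G and C content, in which these windows are richer. A match describes the letters only.

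Fst encodes follistatin, the activin trap of the family. Its spot (A_51_P381821, NM_008046) had mean intensities of 831, 756 and 746 in Cy5 on arrays 1, 2 and 3, against 164, 160 and 136 in Cy3, where the 95th percentile of the negative control spots was 162, 168 and 107. The EpH4-PR channel was brighter on all 3 arrays and the channels did not overlap. After normalization the log2 ratios were 1.75, 1.70 and 1.63, a mean of 1.69 ± 0.06 (SD, n = 3 arrays) with a 95% interval of 1.58 to 1.81 and an adjusted p of 2.6e-05. Fst stood at the 99.6 percentile of all probes. It was called higher in all 14 alternative settings that can move a ratio or its p, with ratios from 1.67 to 2.61.

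Fstl1, the distant relative of follistatin, was at the other end. Its spot (A_51_P215106, NM_008047) read 142, 138 and 112 in Cy5 and 1181, 1035 and 1174 in Cy3. The Cy5 signal was low but well above background on every array, where the median negative control spot read 72.6, 74.1 and 57.3. The log2 ratios were -4.29, -4.11 and -4.57, with a mean of -4.32 ± 0.23 (SD, n = 3), a 95% interval of -4.56 to -4.08 and an adjusted p of 1.8e-05. These values placed Fstl1 at the 0.0461 percentile of all probes, the lowest of the antagonists. It was called lower in all 14 settings, between -5.36 with the log ratio of the scanner software and -3.32 with median centring.

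The third member of the family, Fstl3, which also binds activins, did not pass the test. Its spot (A_52_P14851) read 318, 327 and 305 in Cy5 and 204, 225 and 182 in Cy3. Its log2 ratios of 0.09, -0.11 and -0.04 lay on both sides of 0, with a mean of -0.02 ± 0.10 (SD, n = 3) and an adjusted p of 0.78. After normalization of the channels its levels were 217 to 231 in EpH4-PR RNA and 204 to 249 in reference RNA, so the channels overlapped. The 3 genes of the family thus spanned the whole range of the 13 antagonist probes, with ratios of -4.32, -0.02 and 1.69 whose arrays did not overlap.

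**Figure D2:**
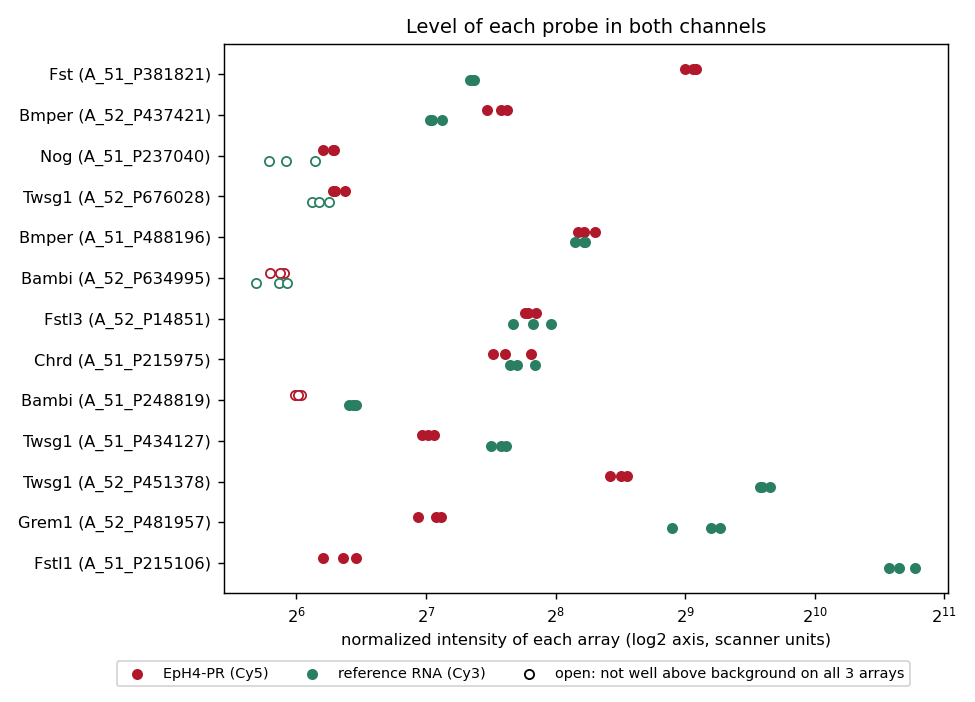
Normalized intensity of each antagonist probe (y axis) on each of 3 arrays in the EpH4-PR channel (red) and the reference channel (green), on a log2 x axis in scanner units; open circles mark a probe that was not well above background on all 3 arrays in that channel. Channels lie far apart for Fst, Grem1 and Fstl1, overlap for Chrd and Fstl3, and are open in EpH4-PR RNA for both Bambi probes only; levels of different probes are not comparable.

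Among the ligand-binding antagonists with a cystine knot, Grem1 differed most from the reference. Grem1 encodes gremlin 1, which binds Bmp2, Bmp4 and Bmp7. Its spot (A_52_P481957, NM_011824) read 219, 180 and 196 in Cy5 and 475, 385 and 436 in Cy3. The reference channel was brighter on every array. The log2 ratios of -2.09, -1.96 and -2.19 averaged -2.08 ± 0.12 (SD, n = 3) with an adjusted p of 2.7e-05, and the call held in all 14 settings, between -2.61 and -1.20. The transcript was well above background in EpH4-PR RNA on all 3 arrays.

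Nog, whose product is the reagent used to block Bmps, was dim in both channels. Its spot (A_51_P237040) read 90.7, 87.4 and 73.8 in Cy5 and 113, 107 and 92.6 in Cy3, where the median negative control spot was at 72.6, 74.1 and 57.3 in Cy5 and at 119, 121 and 91.8 in Cy3. The EpH4-PR signal was well above background on all 3 arrays, and the reference signal on 2 of them. The log2 ratios were 0.37, 0.42 and 0.14, with a mean of 0.31 ± 0.15 (SD, n = 3) and an adjusted p of 0.017. The adjusted p rose to 0.076 without replicate 1 (ratio 0.28) and to 0.091 without replicate 2 (ratio 0.25) and was 0.14 by the methods' t-test after adjustment. The ratio ranged from 0.07 with median centring to 1.23 with a normexp offset of 0.

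Chrd encodes chordin, which holds Bmps until it is cut by the protease Bmp1. Its spot (A_51_P215975) read 283, 316 and 247 in Cy5 and 202, 212 and 169 in Cy3. The log2 ratios were -0.04, -0.03 and -0.18, with a mean of -0.08 ± 0.09 (SD, n = 3) and an adjusted p of 0.22. Chrd passed the background flag in both channels of every array, with normalized levels of 183 to 224 in EpH4-PR RNA and 201 to 229 in reference RNA. The channels overlapped.

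Twsg1 and Bmper, the modulators that bind chordin together with the ligand, were read by several probes that did not give 1 value. The 3 probes of Twsg1 had log2 ratios of -1.12 ± 0.05, -0.55 ± 0.06 and 0.14 ± 0.04 (SD, n = 3), a span of 1.25 that was seen on each array (1.20 to 1.28). The brightest (A_52_P451378, NM_023053) read 632, 512 and 574 in Cy5 and 588, 525 and 516 in Cy3, and gave -1.10, -1.17 and -1.08, with an adjusted p of 5.8e-05. The uncorrected spot intensities of this probe differed little between the channels, and its ratio was 0.0072 under median centring in place of loess. The next (A_51_P434127, NM_023053) read 176, 184 and 164 in Cy5 and 207, 203 and 158 in Cy3, with ratios of -0.61, -0.56 and -0.48 and an adjusted p of 0.00058, and went to -0.0025 (adjusted p = 0.97) with median centring. The dimmest (A_52_P676028), which the array design ties to another accession of the gene (AF292033), gave 0.18, 0.11 and 0.12 with an adjusted p of 0.04999, and its reference signal was well above background on 1 of 3 arrays. Leaving out any 1 array took that p to between 0.069 and 0.232.

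Bmper encodes a secreted protein with chordin-like repeats. Its brighter probe (A_51_P488196) read 446, 428 and 466 in Cy5 and 262, 239 and 223 in Cy3, and had a mean log2 ratio of 0.03 ± 0.07 (SD, n = 3) and an adjusted p of 0.57. Its dimmer probe (A_52_P437421) read 274, 234 and 244 in Cy5 and 162, 152 and 122 in Cy3, and its log2 ratios of 0.50, 0.44 and 0.54 averaged 0.49 ± 0.05 with an adjusted p of 0.00073. The probes carry the same accession (NM_028472) and their arrays did not overlap, with a gap of 0.36 to 0.55 on the single arrays. All 3 arrays placed Bmper well above background in both channels on both probes.

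Bambi, the membrane pseudoreceptor, was the 1 gene of the 9 that was not well above background in EpH4-PR RNA on any array by either of its probes. The first (A_51_P248819, NM_026505) is printed 10 times on each array. Its mean intensity over these spots was 78.1, 82.0 and 61.1 in Cy5 and 139, 141 and 106 in Cy3, and the reference channel passed the background flag on all 3 arrays but lay below the 95th percentile of the negative control spots (162, 168 and 107). The log2 ratios were -0.44, -0.42 and -0.39, a mean of -0.42 ± 0.03 (SD, n = 3) with an adjusted p of 0.0010. The EpH4-PR signal also lay below the 95th percentile of the negative control spots in Cy5 (85.9, 87.4 and 62.9). The mean normalized levels of this probe were 1.34-fold higher in reference RNA, which is the measured ratio and not a lower limit. With both channels in the range of the control spots, the size of any Bambi difference is uncertain. The lowest normalized EpH4-PR signal flagged well above background was 49.5 to 52.5 on the 3 arrays. The measured Bambi level of 63.6 to 65.6 lay above it, so that floor sets no bound. Without a dye swap the ratio is open to dye bias.

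The repeated spots show the precision within an array. All 30 Bambi spots had a ratio below 0. The SD between the 10 spots was 0.22, 0.27 and 0.19 on arrays 1, 2 and 3, with 1 spot far from the others. That spot, in the same place on each array, had -1.02, -1.12 and -0.92. Without it the mean was -0.35, or 1.28-fold in place of 1.34-fold. Single Bambi spots were well above background in Cy5 in 1, 3 and 0 cases of 10. The other Bambi probe (A_52_P634995, NM_026505) was not well above background in either channel on any array and gives no fold.

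**Figure D3:**
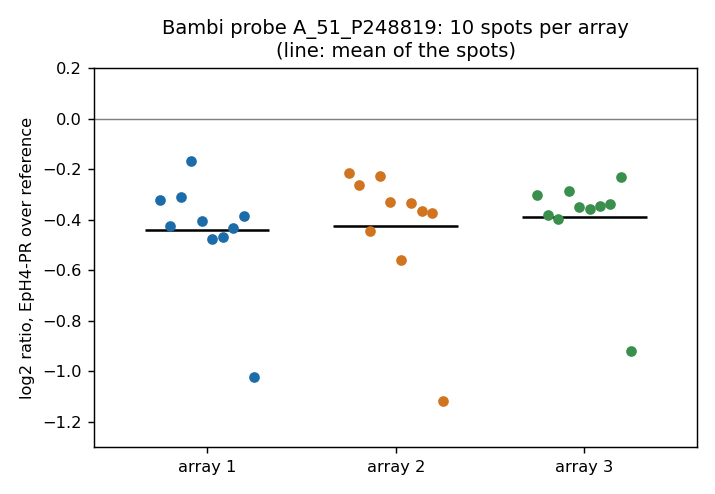
Log2 ratio, EpH4-PR over reference, (y axis) for each of the 10 spots of the Bambi probe A_51_P248819 on arrays 1, 2 and 3 (x axis); the black line is the mean of the 10 spots. All 30 spots lie below 0, and the same spot is lowest on every array, at -1.02, -1.12 and -0.92.

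Only the 9 probes that passed the background flag in each channel of every array were ordered by ratio. Of these, Fst and the dimmer Bmper probe lay below the 95th percentile of the negative control spots in reference RNA on array 2. Fstl1, Grem1 and 2 Twsg1 probes followed each other upward without overlap between their arrays. Chrd, Fstl3 and the brighter Bmper probe came next and overlapped each other. The other Bmper probe and Fst then stood above these without overlap. With median centring both Twsg1 probes lay at about 0, at 0.0072 and -0.0025, and had no order between them. The order describes differences from the reference and does not rank the transcripts by abundance.

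With median centring in place of loess, probes of a mean log2 brightness up to 6.25 moved down by 0.19 to 0.24 and all brighter antagonist probes moved up by 0.55 to 1.12. Chrd then lay at 0.65, Fstl3 at 0.77 and the Bmper probes at 0.96 and 1.05, and the dimmer Bmper probe became a second higher call. Fst, Fstl1 and Grem1 were called in the same direction in all 14 settings and the Twsg1 probe in 13. With a normexp offset of 0 and with the log ratio of the scanner software, the Bambi probe printed 10 times went to -1.27 and -1.93. It was a call there, although its EpH4-PR signal was not well above background on any array.

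**Figure D4:**
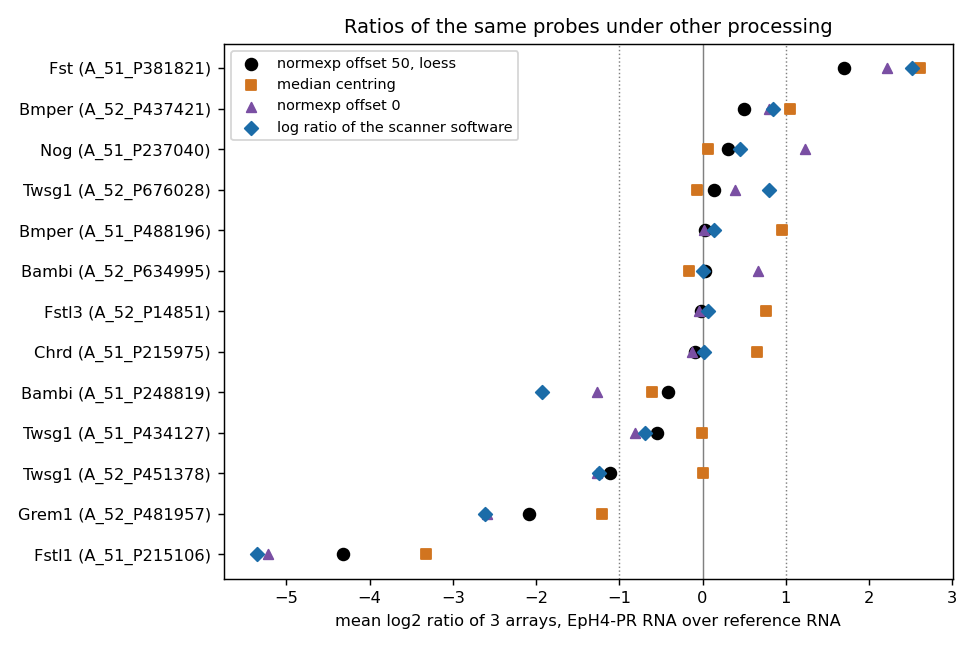
Mean log2 ratio of 3 arrays (x axis) of the 13 antagonist probes (y axis) with normexp offset 50 and loess (black circles), median centring (orange squares), normexp offset 0 (purple triangles) and the log ratio of the scanner software (blue diamonds). Fst stays above 1 and Fstl1 and Grem1 below -1 in all 4, while the Twsg1 probe at -1.12 moves to 0.0072 and Chrd from -0.08 to 0.65 with median centring.

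The genes that these antagonists act with were taken from lists of the pathway. A list gene counts as called if any of its probes was, and the share of all genes called in this way was not computed. Over all probes 2.26% were called higher and 3.83% lower, so the small counts below only describe the lists. Of 16 further antagonists 15 had a probe, and 2 were called higher and none lower, with a median ratio of 0.07. These were Htra1, a secreted serine protease, at 1.54 ± 0.0043 (SD, n = 3; adjusted p = 2.4e-05) and Crim1, a membrane protein with chordin-like repeats, at 1.09 ± 0.07 on 1 probe (adjusted p = 7.7e-05) and 0.13 ± 0.15 on the other. Sostdc1, Cer1 and Chrdl2 were not well above background in EpH4-PR RNA on any array. No chordin protease of 3 was called, and Tll1 and Tll2 were not well above background in EpH4-PR RNA.

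Among 14 Bmp ligands 1 was called lower and none higher, with a median ratio of -0.08, and 6 were not well above background in EpH4-PR RNA on any array. The lower ligand was Bmp7, at -1.02 ± 0.19 (SD, n = 3; adjusted p = 0.00042) on 1 probe and -0.83 ± 0.09 on the other, and the call on the first was lost without replicate 3 (-0.92) and with median centring (-0.87). Bmp4, which gremlin, noggin and chordin all bind, had a ratio of -0.48 ± 0.06, and Bmp2 was not well above background in EpH4-PR RNA. Of 7 activins and related ligands, a list that includes activins bound by follistatin, 1 was called higher. This was Inhbb, the activin B subunit, at 3.06 ± 0.12 on 1 probe (adjusted p = 1.7e-05) and 0.09 ± 0.06 on the other, while Inhba, the activin A subunit, had 0.10 ± 0.03.

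None of 9 type 1 and type 2 receptors, 5 co-receptors or 6 Smads was called in either direction, with median ratios of -0.01, -0.24 and 0.04. Acvr1 (Alk2), a type 1 receptor, had -0.23 ± 0.12, and Bmpr1a (Alk3) had -0.60 ± 0.09 and 0.24 ± 0.08 on its probes. Of 8 Bmp target genes 1 was called higher and 3 lower, with a median of -0.44. Msx2, a homeobox factor, had 1.83 ± 0.20 (adjusted p = 0.00033) on the 2 arrays that kept its spot, which was an outlier on the other. Its reference signal was well above background on 1 of those 2, so the size of this ratio is uncertain: it was 1.33 with outlier spots kept, 4.11 with a normexp offset of 0 and 3.69 with the log ratio of the scanner software, where it was not called (adjusted p = 0.108 by limma), and the call was also lost in the methods' t-test after adjustment. Id1 had -1.23 and -1.28 on its probes, Id2 had -2.11 and -3.44, and the Notch and Bmp target Hey1 had -1.04. With median centring the calls of Id1 (0.11 and 0.08) and Hey1 (-0.64) were lost, and the median of the target list became 0.07.

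**Figure D5:**
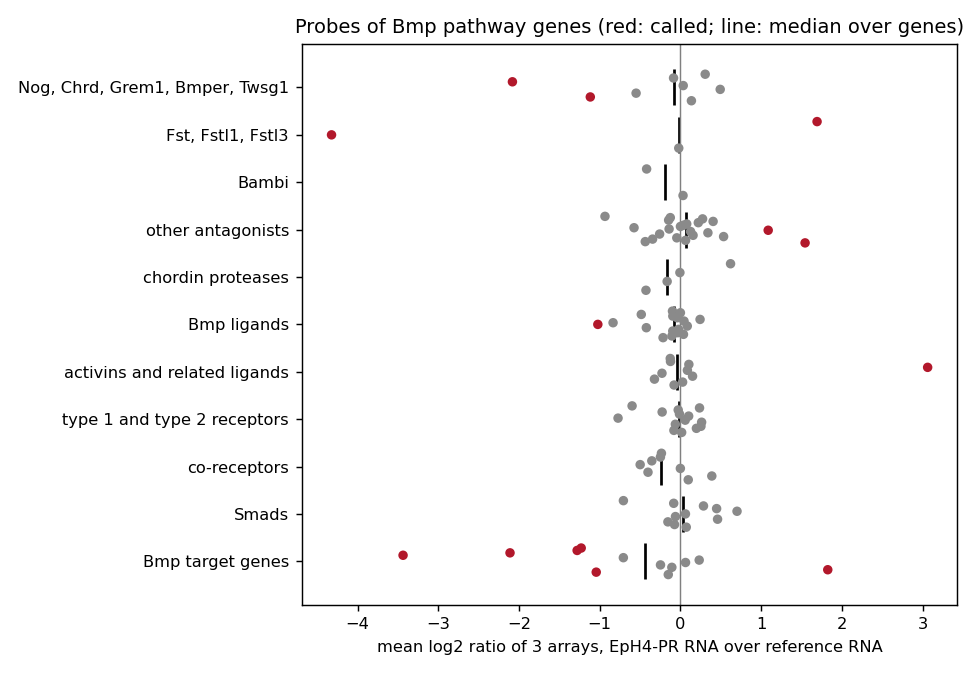
Mean log2 ratio, EpH4-PR over reference (x axis), for each probe of the antagonists (top 3 rows) and of the other Bmp pathway lists (y axis); red points were called, gray points were not, and the black line is the median over the genes of a list. Called probes among the antagonists lie at -4.32, -2.08, -1.12 and 1.69, the highest probe is that of Inhbb at 3.06, and no receptor, co-receptor or Smad is red.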

How the data were processed

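EpH4-PR RNA (Cy5) and reference RNA (Cy3) were measured on 3 two-color arrays, each on its own slide and scan, without a dye swap. The authors deposited Agilent Feature Extraction 8.1.1.1 output, with mean, median and local background intensity of each spot, a log10 ratio of Cy5 over Cy3 and detection flags, not normalized between arrays. A deposited table of fold changes, log ratios, ratios and p-values with pooled intensities for 2 unnamed sides was not used.

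Intensities were corrected with limma 3.58.1 normexp (offset 50) in R 4.3.3, and log2 ratios were normalized by loess with control and outlier spots at weight 0; 150, 18 and 3 outlier spots on replicates 1, 2 and 3 were then left out, so Msx2 rests on 2 arrays. Channel levels were normalized by loess and Aquantile. Spots of a probe were averaged, and each probe was reported on its own. The mean ratio was tested against 0 (lmFit, eBayes), and the fit was tested on simulated data. Python 3.11.15 was used for summaries. The number of arrays limits the precision.

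Accessions were matched to RefSeq symbols for 21445 of 23705 probes; the files name no genome build, so no probe coordinates are given. A list gene counts as called if any probe was. The text names every antagonist probe, up to 3 called genes in each direction of a pathway list and fixed ligands, receptors and Msx2; Krt19, Crim1's second probe and genes near background were named after their values were seen. The members and lists were chosen with earlier results of these data known. Alternatives were the background correction, the scanner software's log ratio, centring, between-array normalization, a dim-probe filter, outlier spots, median spot intensity, an intensity trend, the methods' t-test, arrays left out, detection definitions and the mean over probes, and, added after the data were seen, negative control spots as background.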

Additional observations from a re-analysis of the deposited data

How the results depend on the processing

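Of 188 values of the 13 antagonist probes under alternatives, 170 counted as unchanged, 11 changed sign and 3 became calls. Another 4, all means over probes, kept their sign but moved by the SD between arrays or more. Unchanged means the same sign and the same call or, for a mean over probes, a move under that SD. Among the 170 are Bambi A_52_P634995, at 0 with the log ratio of the scanner software, and Nog, at 1.23 but not called with a normexp offset of 0. With median centring they also include Twsg1 A_51_P434127, which went from -0.55 to -0.0025, and Bmper A_51_P488196, which went from 0.03 to 0.96. Unchanged therefore does not mean a ratio of like size. The cause of the sign changes was not tested. Aquantile, which leaves ratios as they are, is not counted. With median centring Twsg1 (A_52_P451378) went to 0.0072, Chrd to 0.65, Fstl3 to 0.77, Bambi (A_52_P634995, not well above background in either channel) to -0.17 and Twsg1 (A_52_P676028) to -0.062. With the log ratio of the scanner software Chrd was 0.021 and Fstl3 0.063. The mean over probes gave -0.19 for Bambi and -0.51 for Twsg1, and exists only for genes with several probes. Leaving out 1 array gave -0.076 to 0.025 for Fstl3 and -0.0039 to 0.073 for Bambi (A_52_P634995). Over all probes, higher and lower calls numbered 7029 and 709 with median centring (90.8% higher, against 37.1%), 3616 and 3887 when the log ratio of the scanner software was taken (48.2%), and 3125 and 3905 at a normexp offset of 0 (44.5%). Pathway probes called higher numbered 4, and 13, 8 and 9 in these settings; those called lower numbered 6, and 2, 15 and 14. Antagonist probes called higher numbered 2 with median centring. Msx2, at 3.69 with the log ratio of the scanner software, was no longer a call there, nor by the methods' t-test after adjustment. Of the list medians under alternatives 25 moved by more than the spread between arrays and 87 did not. Slide and scan were not run as a block, since each holds 1 array, and the dim-probe filter drops Bambi A_52_P634995 and Msx2. No paired analysis was possible because there is 1 group.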
